A study of Homo sapiens and Mus musculus with 12 samples.

Results

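The genes described here encode receptors through which natural killer (NK) cells recognise targets: the natural cytotoxicity receptors NKp46, NKp44 and NKp30, the Fc receptor CD16 and the glycoprotein CD160. They were taken by symbol, 3 from a mouse count table (Ncr1, Fcgr3 and Cd160) and 5 from a human one (NCR1, NCR2, NCR3, FCGR3A and CD160), so that there were 8 members among 40325 listed genes, and all 8 passed the filter on low counts. The mouse libraries came from NK cells sorted from the spleens of C57BL/6J mice of 8 to 12 weeks, matched for age and sex. WT mice carried loxP sites on both copies of Ehmt2 (Ehmt2 flox/flox), which encodes a histone H3 lysine 9 methyltransferase, and KO mice carried the same alleles together with Ncr1 iCre, which drives Cre recombinase in cells that express Ncr1. The human libraries came from NK92MI, an established NK cell line that needs no added IL-2, cultured with the EHMT2 inhibitor BIX-01294 (BIX) or with its solvent DMSO. Each of the 4 groups had 3 libraries. Neither the dose nor the time of the sequenced cultures is stated in the labels. Nothing in the labels says that the NK92MI libraries came from independent cultures, so their p-values measure the spread between these libraries, which may be technical. The titles of the mouse samples give replicate numbers and do not say whether each library came from a different mouse.

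NKp46 (NCR1), NKp44 (NCR2) and NKp30 (NCR3) are activating receptors that signal through partner chains. NKp46, NKp30 and CD16 pair with the ITAM-bearing chains CD247 (CD3 zeta) and FCER1G, and NKp44 pairs with TYROBP (DAP12). CD16 binds the constant part of IgG and starts antibody-dependent killing. In mice the NK cell form of CD16 is encoded by Fcgr3, which macrophages, monocytes and neutrophils also express, whereas in humans it is encoded by FCGR3A. CD160 is a small immunoglobulin-like protein that binds HVEM (TNFRSF14) and, in the mouse, is also found on ILC1 and some T cells. The mouse has no functional counterpart of NCR2 and NCR3, so only NKp46, CD16 and CD160 could be followed in both species.

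The labels of the KO samples name the genotype as Ezh2-KO while their titles name EHMT2-KO, and the titles were followed. Ehmt2 was counted at 171, 143 and 137 CPM in KO and at 275, 284 and 285 CPM in the WT group (CPM, the read count scaled to a common library size after TMM normalization), so every KO library was lower (log2 fold change −0.91, adjusted p = 0.0162). Ezh2 was at 35, 39.5 and 38.4 CPM in KO and at 41.6, 44.7 and 45.8 CPM in WT libraries, also lower in every KO library but not called (−0.23, adjusted p = 0.116). Total counts lay between 25891680 and 37438868 in the mouse libraries, the smallest being WT replicate 2, and between 16579469 and 17165446 in NK92MI. At these depths each member had at least 247 reads in every library. All 12 of a list of other NK genes, such as Klrb1c and Klrk1, were counted in every mouse library, and in NK92MI NCAM1 (CD56) was at 343 ± 3.28 CPM (SD, n = 3) and the T cell gene CD3E at 493 ± 10.8 CPM (SD, n = 3) in the DMSO group. WT replicate 2 stood apart from the other WT libraries. The geometric mean of those 12 NK genes was 549 CPM in it against 322 and 352 CPM in the other WT libraries, and 624 to 720 CPM in KO NK cells.

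The first question was how loss of Ehmt2 in mouse NK cells went with the levels of these receptors. Cd160 rose and Fcgr3 fell in KO NK cells, whereas Ncr1 did not pass the test. Thus 2 of the 3 members were called at an adjusted p under 0.05 by edgeR's quasi-likelihood test, where 11.9% of the 13189 genes tested were called, 4.44% as higher and 7.43% as lower. DESeq2 at the same threshold also called 2 of the 3, where it called 22.2% of genes. The stricter thresholds of the study (0.01 for the adjusted p, together with 0.5 for the absolute log2 fold change) were passed by 0 of the 3 and by 0% of all genes with edgeR, whereas 2 of the 3 and 35.8% of all genes had an unadjusted p under 0.05. DESeq2 with the study's thresholds called Cd160 and Fcgr3 (adjusted p = 4.38e-06 and 0.000372) among 1499 genes, or 10.7% of those it tested.

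Cd160 (chr3:96798763-96829351 of GRCm38, minus strand) was counted at 143, 197 and 160 CPM in KO replicates 1 to 3 and at 76.2, 101 and 61.3 CPM in WT replicates 1 to 3. The lowest KO library was thus above the highest WT library, and WT replicate 2 was the WT library nearest to the KO group. The KO mean of 167 ± 27.4 CPM was 2.10 times the WT mean of 79.6 ± 20.3 CPM (SD, n = 3 each). The log2 fold change was 1.07 (standard error 0.19, 95% interval 0.62 to 1.52, adjusted p = 0.0304 by edgeR), and the gene ranked 281 among all genes tested by p. Of all genes tested, 38.5% had groups that did not overlap, 19.1% with KO higher and 19.3% with KO lower. The two-sided exact permutation test gave p = 0.1, the smallest that 3 against 3 allow. The call was lost without KO replicate 2 (adjusted p = 0.125), KO replicate 3 (0.131), WT replicate 1 (0.081) or WT replicate 3 (0.106), with log2 fold changes from 0.91 to 1.10 in these fits. Without WT replicate 2 it was 1.28 (adjusted p = 0.00286). Over all genes, edgeR called 0 without KO replicate 2 or KO replicate 3. It called 35 higher and 64 lower without WT replicate 1, and 6 and 8 without WT replicate 3. Without WT replicate 2 it called 1433 and 2097, against 585 and 980 with every library. Of the 8 ILC1 markers, 0 were called by edgeR and 1 by DESeq2, 2 had an unadjusted p under 0.05 by edgeR, and their summed level was 516 to 664 CPM in the KO group and 565 to 666 CPM in the WT group. The 8 T cell markers in the table summed to 97.5 to 219 CPM in the KO group and 155 to 260 CPM in the WT group, and Cd3g was the 1 called, with a log2 fold change of 0.59 (adjusted p = 0.0452). Cd4, with log2 fold change −1.21, held the largest part of that sum in the WT group, while Cd3d (0.52, adjusted p = 0.126) and Cd3g were higher in every KO library, and 5 of the 8 ILC1 markers had positive log2 fold changes. The part of these cells in the level of Cd160 was not tested.

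Fcgr3 (chr1:171051174-171064935 of GRCm38, minus strand) was counted at 118, 84.1 and 96.6 CPM in KO replicates 1 to 3 and at 195, 131 and 203 CPM in WT replicates 1 to 3. The highest KO library was below WT replicate 2, which in turn lay closer to the KO libraries than to the other WT libraries. The KO mean of 99.6 ± 17.2 CPM was 0.565 times the WT mean of 176 ± 39.4 CPM (SD, n = 3 each). The log2 fold change was −0.82 (standard error 0.19, 95% interval −1.26 to −0.39, adjusted p = 0.0412 by edgeR; exact permutation p = 0.1). The call was lost without KO replicate 2 (adjusted p = 0.157), KO replicate 3 (0.151), WT replicate 1 (0.108) or WT replicate 3 (0.131), with log2 fold changes from −0.80 to −0.71. Without WT replicate 2 it was −0.99 (adjusted p = 0.00382). The calls over all genes in these fits were those given above for Cd160, 0 without KO replicate 2 or KO replicate 3. Of the 100-base windows in its transcripts, 2.54% also occurred in transcripts of the inhibitory receptor gene Fcgr2b.

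Fcgr3 is also expressed by other leukocytes, whose markers were counted in the same libraries. Of 18 macrophage and monocyte markers, 9 were called lower and 1 higher with the KO genotype, with a median log2 fold change of −1.83 against 0.01 for all genes tested, and 16 of the 18 had negative values. None was at 0 counts, and all 18 had an unadjusted p under 0.05 by edgeR and were called by DESeq2. The called genes with the smallest adjusted p were Cd68 (log2 fold change −1.14), the haem oxygenase gene Hmox1 (−2.54), the red pulp macrophage factor Spic (−2.28) and Ly6c2 (0.63). The 18 markers summed to 3829, 2323 and 3086 CPM in KO replicates 1 to 3 and 11160, 3875 and 7522 CPM in WT replicates 1 to 3. KO replicate 1 and WT replicate 2, the libraries nearest to each other in this sum, were also the nearest across genotypes in Fcgr3. Of 11 neutrophil markers, 10 were tested and 2 were lower at an adjusted p under 0.05 (Ngp and Ltf, log2 fold changes −4.12 and −4.43), and their sum was 57.7 to 257 CPM in the KO group and 231 to 1724 CPM in the WT group. B cell markers summed to 98.4 to 536 CPM in the KO group and 571 to 1639 CPM in the WT group, with 0 of 10 called by edgeR or DESeq2 but 8 at an unadjusted p under 0.05 by edgeR. Among 8 dendritic cell markers Clec9a and Siglech were called lower by edgeR (log2 fold changes −1.17 and −1.30). Of these 8, 7 had negative log2 fold changes and 1 a positive one. An unadjusted p under 0.05 by edgeR was found for 7, and DESeq2 called 6. The part of these cells in the lower level of Fcgr3 was not tested, and in bulk RNA fewer cells of a type and less RNA per cell cannot be told apart.

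**Figure D1:**
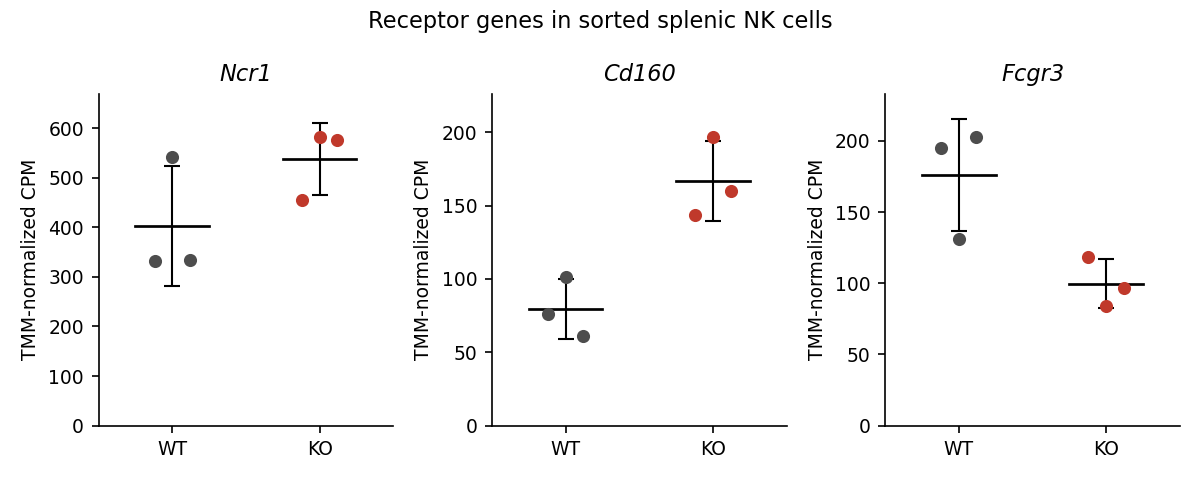
TMM-normalized CPM of Ncr1, Cd160 and Fcgr3 in the 3 WT and 3 KO libraries (points, replicates 1 to 3 from left to right; line and bars, mean and SD; the axes start at 0). The Cd160 points of the KO group lie above and the Fcgr3 points below all WT points, and the highest WT point of Ncr1, 542 CPM, lies within the KO range.

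Ncr1 (chr7:4337724-4345164 of GRCm38, plus strand) was the most abundant of the 3 and ranked 309 by mean CPM among all genes tested. It was counted at 455, 583 and 576 CPM in KO replicates 1 to 3 and at 333, 542 and 333 CPM in WT replicates 1 to 3. The groups overlapped, since WT replicate 2 lay above KO replicate 1. The KO mean was 538 ± 71.9 CPM and the WT mean 403 ± 121 CPM (SD, n = 3 each). The log2 fold change was 0.42 with a 95% interval from −0.06 to 0.90 (standard error 0.21, adjusted p = 0.185 by edgeR; exact permutation p = 0.2). Without WT replicate 2 it was 0.69 and passed the test (adjusted p = 0.0101). Over all genes that fit called 1433 higher and 2097 lower, against 585 and 980 with every library. All KO and no WT mice carried Ncr1 iCre, so an effect of this allele on the counts of Ncr1 and an effect of the loss of Ehmt2 cannot be told apart.

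The NK reference genes all had a larger log2 fold change than Ncr1. All 12 genes of the NK reference list, which holds no member, had a positive log2 fold change, with a median of 0.78, and 7 of them rose at an adjusted p under 0.05, among them Cd244 (0.46), Klre1 (0.84), Klrk1 (0.87) and Klrd1 (0.84). The members were therefore also set against these genes, in a measure chosen after the data were seen, each library's CPM being divided by the geometric mean CPM of the list. The list holds Il2rb and Prf1, whose mRNA the paper reports as higher in KO NK cells by RT-qPCR. A ratio to the list can thus differ because the list itself differs, and this was not tested. Divided by that geometric mean, Ncr1 was at 0.728, 0.818 and 0.8 in KO replicates 1 to 3. In WT replicates 1 to 3 it was at 1.03, 0.989 and 0.946. Every KO library was then below every WT library, WT replicate 2 included, with a ratio of means of 0.79 (exact permutation p = 0.1, the smallest possible). The share of all genes that did so in this measure was not counted. In the edgeR fit scaled to these genes, 8804 of 13189 genes were called lower and 36 higher. There the log2 fold change of Ncr1 changed sign to −0.34 (adjusted p = 0.17). That scaling moved the median of all genes to −0.81, so that relative to the median gene Ncr1 stood at 0.47, against 0.40 with TMM.

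Cd160 was at 0.23, 0.276 and 0.223 of the same geometric mean in KO and at 0.237, 0.185 and 0.174 in WT replicates 1 to 3. The groups overlapped here (exact permutation p = 0.3), and in the fit scaled to the NK genes Cd160 had a log2 fold change of 0.29 and was not called (adjusted p = 0.278). Relative to the median gene it stood at 1.10, against 1.05 with TMM. Fcgr3 was at 0.189, 0.118 and 0.134 in KO and at 0.605, 0.239 and 0.576 in WT replicates 1 to 3, and stayed lower in every KO library (log2 fold change −1.69, adjusted p = 0.000972 in the scaled fit). In that fit 8804 of 13189 genes were called lower and 36 higher, and relative to the median gene Fcgr3 stood at −0.88, against −0.84 with TMM.

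**Figure D2:**
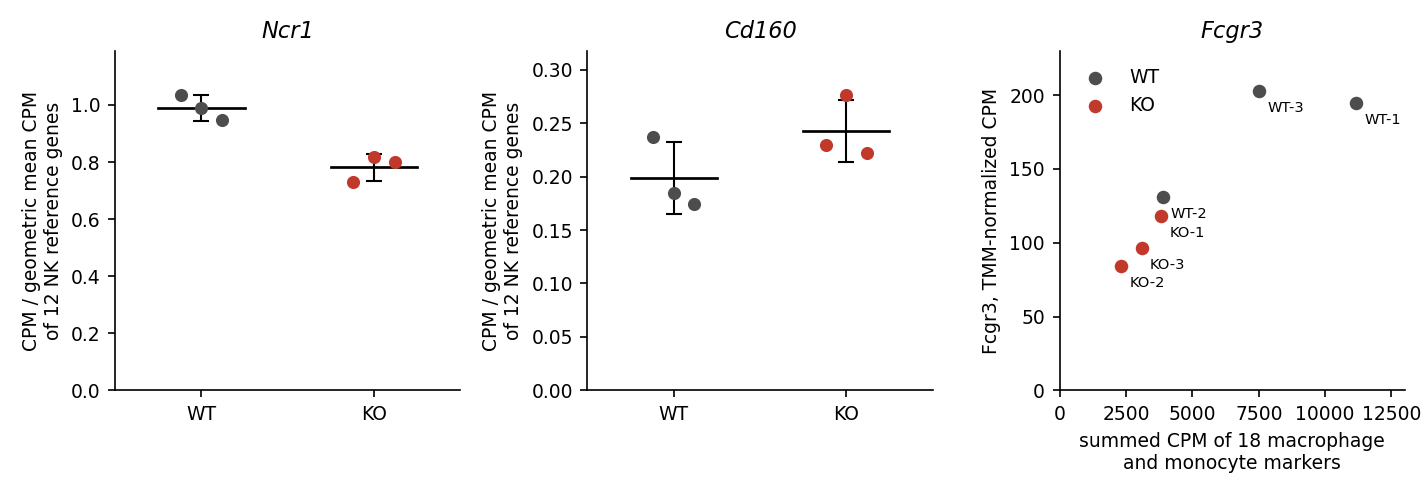
Left and middle, Ncr1 and Cd160 divided by the geometric mean CPM of 12 NK reference genes in each WT and KO library (points, replicates 1 to 3 from left to right; line and bars, mean and SD). Right, Fcgr3 CPM against the summed CPM of 18 macrophage and monocyte markers in each library, with WT replicate 2 (3875 CPM) and KO replicate 1 (3829 CPM) side by side.

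The partners of these receptors were measured in the same libraries. All 4 adaptor chains had positive log2 fold changes (median 0.38), and 1 of them was called, Cd247, which was at 169, 181 and 166 CPM in KO and at 93.7, 126 and 99.8 CPM in WT replicates 1 to 3 (log2 fold change 0.69, adjusted p = 0.0279). Among 24 signalling genes downstream of the receptors, 3 rose and 1 fell, with a median of 0.06. The kinase Lck (0.73) and the ubiquitin ligase Cblb (0.55) were among those that were higher, and the exchange factor Vav2 (−0.83) was lower. Of 9 ligand genes tested, Cfp, which encodes the NKp46 ligand properdin and is made by myeloid cells, fell from 450 to 146 CPM (−1.62), and Tnfsf14, which encodes LIGHT, another binding partner of HVEM, rose (0.67). Of 8 other Fc receptor and Fc receptor-like genes 2 fell and 0 rose, with a median of −1.50. Those were Fcgrt (−1.52), which encodes the neonatal Fc receptor, and the B cell gene Fcrla (−2.12). Fcgr4, a receptor of myeloid cells, did not pass (−0.73, adjusted p = 0.0714), and neither did the inhibitory Fcgr2b (0.18, adjusted p = 0.2); both were named after their values were seen. On the list for the shedding of CD16, Adam17, the gene of the protease that cleaves CD16, was at 98.6 CPM with the KO and 93.3 CPM with the WT genotype and was not called, and Rhbdf2, which encodes a cofactor of that protease, fell (−0.99, adjusted p = 0.0481). Adam17 too was named after its value was seen. The adaptor, signalling, ligand, Fc receptor and shedding lists had 4, 24, 9, 8 and 6 genes tested. In all, 10 of these pathway genes were called, 5 of them lower. Of all genes tested, 11.9% were called, 7.43% as lower. With robust dispersion estimates, an alternative added after the data were seen, none of those 5 (Vav2, Cfp, Fcgrt, Fcrla and Rhbdf2) was called and the total was 5. It was 27 without WT replicate 2 and 0 without KO replicate 2, KO replicate 3, WT replicate 1 or WT replicate 3. Calls over all genes moved too. They were 547 higher and 781 lower with robust dispersion estimates, and 1433 and 2097 of 13411 without WT replicate 2. They were 0 without KO replicate 2 or KO replicate 3. Without WT replicate 1 they were 35 and 64 of 13332, and without WT replicate 3 they were 6 and 8 of 13330. Scaled to the NK genes, 0 genes of the 5 lists rose and 35 fell by edgeR, as that scaling lowers all log2 fold changes together.

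Libraries were also compared for genes that varied as the members did. Likeness was the root mean square difference of log2 CPM over the 6 mouse libraries, each gene being centred on its mean. The genes nearest to Ncr1 were Bcl2, an inhibitor of apoptosis (0.05), Itgax, the gene of CD11c (0.053), and the zinc finger gene Zfp607 (0.056), where the spread of Ncr1 itself was 0.344. For Fcgr3 they were the lysophospholipid acyltransferase gene Lpcat1 (0.041), the kinase gene Alpk1 (0.053) and the actin regulator Dstn (0.063), with a spread of 0.474. For Cd160 they were Lzts1 (0.064), Fgd5 (0.086) and Fhl2 (0.102), with a spread of 0.597. The 6 libraries also differ together in genotype and in the markers of other cells, so this is a description only.

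The second question was how the receptors responded to BIX-01294 in NK92MI cells. FCGR3A, NCR3 and NCR2 rose and NCR1 fell, while CD160 did not pass the test. At an adjusted p under 0.05, 4 of the 5 members were called, where 36.9% of the 12727 genes tested were called (18.4% in each direction). All 5 had an unadjusted p under 0.05, as did 46.1% of all genes, and DESeq2 called 4 of the 5 and 33.6% of all genes. FCGR3A was the 1 member that passed the study's thresholds, as did 11.7% of all genes by edgeR and 11.1% by DESeq2. EHMT2, the target of the inhibitor, was itself lower, at 38.5 ± 2.39 CPM with BIX and 57.7 ± 3.66 CPM with DMSO (SD, n = 3; log2 fold change −0.58, adjusted p = 0.000101).

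The entry for NCR3 was not found, and the 250 bases before the transcription start of 4 of the human members are shown. They are RefSeq sequences on GRCh38.p14, written 5′ to 3′ on the strand of the gene, with matches to a RUNX motif (TGTGGT or its complement ACCACA), an ETS motif (GGAAGT or ACTTCC) and a T-box motif (GGTGTGA or TCACACC) in capitals. RUNX, ETS and T-box proteins are transcription factor families that act in NK cells.
NCR1, chr19:54905898-54906147, plus strand: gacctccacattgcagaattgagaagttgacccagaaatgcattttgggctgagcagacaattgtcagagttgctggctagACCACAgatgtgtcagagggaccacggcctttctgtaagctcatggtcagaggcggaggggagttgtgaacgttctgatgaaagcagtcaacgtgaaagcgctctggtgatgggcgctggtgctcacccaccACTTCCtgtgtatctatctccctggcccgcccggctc
NCR2, chr6:41335358-41335607, plus strand: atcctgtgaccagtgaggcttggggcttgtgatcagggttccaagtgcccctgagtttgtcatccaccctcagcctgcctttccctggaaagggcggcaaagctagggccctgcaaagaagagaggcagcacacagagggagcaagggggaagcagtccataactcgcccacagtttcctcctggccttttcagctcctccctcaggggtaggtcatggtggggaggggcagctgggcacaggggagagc
FCGR3A, chr1:161549819-161550068, minus strand: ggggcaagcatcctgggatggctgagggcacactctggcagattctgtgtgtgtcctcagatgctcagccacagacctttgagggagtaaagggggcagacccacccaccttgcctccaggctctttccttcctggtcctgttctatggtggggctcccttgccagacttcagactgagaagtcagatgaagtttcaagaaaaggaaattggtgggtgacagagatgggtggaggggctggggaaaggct
CD160, chr1:145719249-145719498, plus strand: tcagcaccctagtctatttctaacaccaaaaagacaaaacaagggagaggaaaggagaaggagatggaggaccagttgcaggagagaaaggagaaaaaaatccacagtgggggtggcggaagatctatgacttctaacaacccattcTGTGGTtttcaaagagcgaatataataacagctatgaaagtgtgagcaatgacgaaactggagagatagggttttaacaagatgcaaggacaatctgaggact
NCR1 and CD160 each held 1 RUNX match, 169 and 103 bases before the start, and NCR1 held 1 ETS match 37 bases before it. NCR2 and FCGR3A held 0 matches to the exact letters of the 3 motifs. Whether such matches bear on the levels of these genes was not tested. Among all 35116 such windows of human genes, 11% held the RUNX, 19.5% the ETS and 2.76% the T-box motif. For FCGR3A, which has 5 such windows, the one at the start of the canonical transcript of GENCODE is given.

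FCGR3A (chr1:161541759-161550968 of GRCh38, minus strand) showed the largest log2 fold change among the 5 human members. It was counted at 29.9, 28.8 and 33.7 CPM with BIX and at 19, 17.7 and 14.6 CPM with DMSO, so every BIX library was above every DMSO library. The means were 30.8 ± 2.58 and 17.1 ± 2.26 CPM (SD, n = 3), a ratio of 1.80. The log2 fold change was 0.85 (standard error 0.11, 95% interval 0.61 to 1.09, adjusted p = 6.23e-05 by edgeR; exact permutation p = 0.1). It remained called without any single library. It also remained called when libraries were scaled to the NK genes (0.58). FCGR3B, a near-identical copy, shared 6.74% of the 100-base windows of FCGR3A transcripts. Another protein-coding gene model of GENCODE, which overlaps FCGR3A on the same strand, shared 9.85%. Reads from such windows may not be assignable to 1 gene, but the annotation release behind the counts is not stated. FCGR3B was at 0.95 ± 0.399 CPM with BIX and 1.6 ± 0.379 CPM with DMSO (SD, n = 3; adjusted p = 0.119), far below FCGR3A in every library.

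NCR3 (chr6:31588895-31593006 of GRCh38, minus strand) was the most abundant member in NK92MI. It was counted at 440, 371 and 534 CPM with BIX and at 305, 349 and 311 CPM with DMSO. The lowest BIX library, replicate 2, was only a little above the highest DMSO library. The means were 448 ± 81.8 and 322 ± 24 CPM (SD, n = 3), and the log2 fold change was 0.48 (standard error 0.10, 95% interval 0.25 to 0.70, adjusted p = 0.00271 by edgeR; exact permutation p = 0.1). Scaled to the NK genes the log2 fold change was 0.21 and not called (adjusted p = 0.0771). LST1, a neighbour on the opposite strand that shares 15 exonic bases with NCR3, was also higher with BIX (12.3 against 5.61 CPM).

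NCR2 (chr6:41335608-41350889 of GRCh38, plus strand) was counted at 21.1, 22.5 and 24 CPM with BIX and at 15.7, 19.4 and 16.4 CPM with DMSO. The groups did not overlap. Its log2 fold change was 0.40 (standard error 0.11, 95% interval 0.16 to 0.63, adjusted p = 0.011 by edgeR; exact permutation p = 0.1). The call was lost without the first or the third DMSO column (adjusted p = 0.0615 and 0.0517). Over all genes, 1864 were called higher and 1799 lower without the first column, and 1861 and 1822 without the third. With every library they were 2348 and 2344. Scaled to the NK genes the log2 fold change of NCR2 was 0.13 (adjusted p = 0.343).

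NCR1 (chr19:54906148-54916140 of GRCh38, plus strand) was counted at 20.8, 22.8 and 21.7 CPM with BIX and at 28.7, 30.1 and 24.7 CPM with DMSO. All BIX libraries lay below all DMSO libraries. The log2 fold change was −0.35 (standard error 0.10, 95% interval −0.57 to −0.14, adjusted p = 0.0128 by edgeR; exact permutation p = 0.1). The call was lost without BIX replicate 1 (adjusted p = 0.0646), the first DMSO column (0.0517) or the second DMSO column (0.0638). Over all genes these fits called 1850, 1864 and 1895 higher and 1641, 1799 and 1787 lower, against 2348 and 2344 with every library. Scaled to the NK genes the log2 fold change was −0.62 (adjusted p = 0.00011), but relative to the median gene it was −0.34 there and −0.35 with TMM.

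CD160 (chr1:145719471-145739288 of GRCh38, plus strand) was counted at 42.4, 52.5 and 47.1 CPM with BIX and at 55.3, 56.2 and 53.3 CPM with DMSO. The groups did not overlap, as was so for all 5 members and for 47.9% of the genes tested (24.1% with BIX higher and 23.9% with BIX lower), but BIX replicate 2 came within 1 CPM of the lowest DMSO library. The log2 fold change was −0.21 (standard error 0.09, 95% interval −0.40 to −0.03) and missed the threshold (adjusted p = 0.0625 by edgeR; exact permutation p = 0.1). It passed without BIX replicate 2 (−0.29, adjusted p = 0.00847) and when libraries were scaled to the NK genes (−0.48, adjusted p = 0.000611). Over all genes, 2581 were called higher and 2440 lower without BIX replicate 2, and 797 and 5874 with that scaling. With every library and TMM they were 2348 and 2344. CD160 shares 421 exonic bases, 10.6% of its exons, with RNF115 on the opposite strand, and since the strand setting of the counting is not stated, reads there cannot be told apart. RNF115 itself was at 113 CPM with BIX and 108 CPM with DMSO (log2 fold change 0.07, adjusted p = 0.446).

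**Figure D3:**
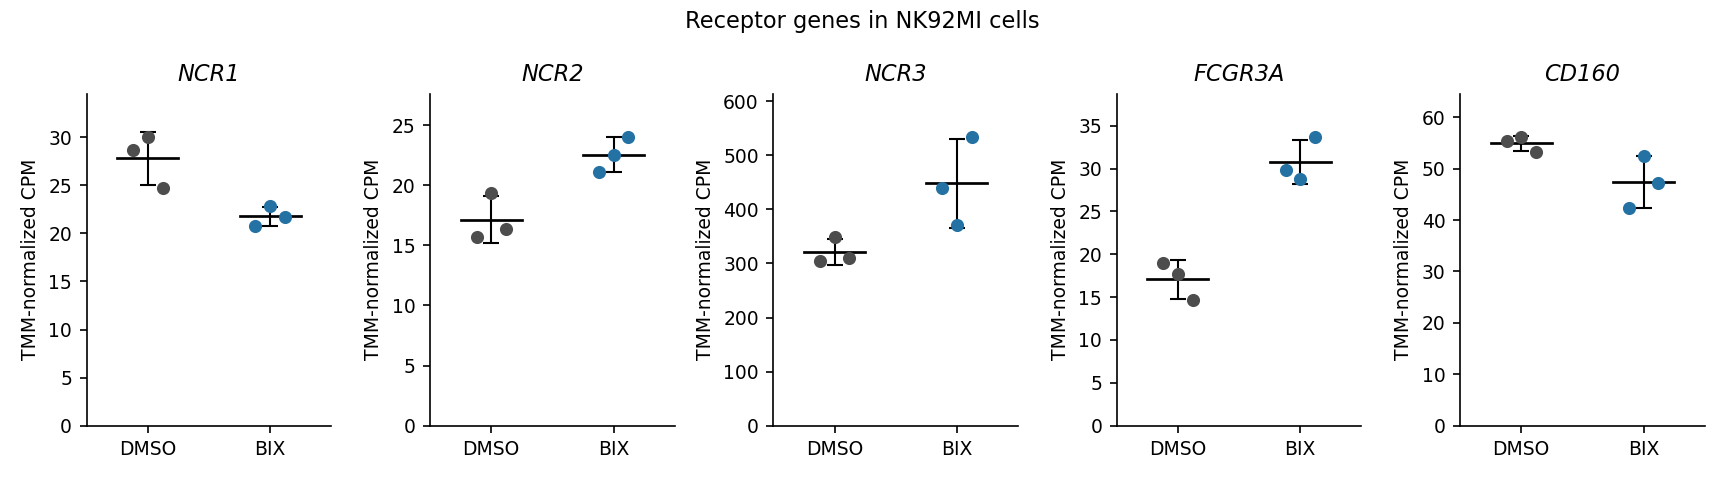
TMM-normalized CPM of NCR1, NCR2, NCR3, FCGR3A and CD160 in the 3 DMSO and 3 BIX libraries of NK92MI (points in column order from left to right; line and bars, mean and SD; the axes start at 0). The groups do not overlap for any of the 5 genes, and the FCGR3A points leave a gap between 19 and 28.8 CPM.

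The NK reference list of NK92MI also moved. Of its 12 genes 7 rose and 3 fell at an adjusted p under 0.05, with a median log2 fold change of 0.29. The granzyme genes GZMA (0.91) and GZMB (0.89) and the perforin gene PRF1 (0.57) rose, and KLRC1, which encodes NKG2A, fell (−0.38). The scaling to these genes moved the median of all genes to −0.28. Relative to that median the members stood where they did with TMM, NCR2 at 0.41 in both fits, NCR3 at 0.48 against 0.49, FCGR3A at 0.86 in both and CD160 at −0.20 against −0.21. Of 12 markers of B cells and myeloid cells 4 could be tested, of which 3 rose and 1 fell, and PAX5 was at 23.5 against 13 CPM. Of the T cell markers 0 of 5 tested were called by edgeR or DESeq2 and 1 had an unadjusted p under 0.05, CD3E (0.16).

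In NK92MI the adaptor chains were unequal in level. Per kilobase of exon, CD247 was at 17.2 ± 2.39 CPM with BIX and 14.2 ± 0.941 CPM with DMSO (SD, n = 3), while FCER1G was at 1.17 and 0.832, HCST at 2.11 and 1.22, and TYROBP, the partner of NKp44, at 0.44 and 0.344 CPM per kilobase. TYROBP had between 4 and 9 reads per library and did not pass the filter on low counts. These levels were described after they had been seen. In mouse NK cells, by contrast, Tyrobp and Fcer1g were at 1229 and 1041 CPM per kilobase in the WT group. CD247 was the 1 adaptor gene called with BIX, with a log2 fold change of 0.28 (adjusted p = 0.0265) and overlapping groups. Without BIX replicate 3, the first DMSO column or the third DMSO column, and with the scaling to the NK genes, no adaptor gene was called by edgeR. Over all genes, the fits without one of these libraries called 1861 to 2502 higher and 1799 to 2407 lower.

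Of 23 signalling genes tested in NK92MI, 10 fell and 2 rose, with a median log2 fold change of −0.18. Those with the smallest adjusted p were the adaptor SH3BP2 (−0.80), the kinases FYN (−0.66) and ZAP70 (−0.50) and the phospholipase PLCG2 (−0.53), all of them lower with BIX. On the ligand list 3 of 10 tested genes rose and 2 fell. TNFSF14 (0.55) and VIM (0.35), the gene of vimentin, rose, while the genes of the NKp30 ligands B7-H6 (NCR3LG1, −0.92) and BAG6 (−0.29) fell. Of 5 other Fc receptor and Fc receptor-like genes tested, FCRL3 rose (0.50) and FCRL6 fell (−1.47). On the shedding list ADAM17 (0.36), ADAM10 (0.23) and RHBDF2 (0.41) rose and MMP25 (−0.32), the gene of another protease that can cleave CD16, fell. These calls depended on single libraries, with 2 higher and 0 lower without BIX replicate 1 or the third DMSO column, 3 higher and 0 lower without BIX replicate 2, 2 higher and 1 lower without the first DMSO column, and 1 higher and 0 lower without the second. The adaptor, signalling, ligand, Fc receptor and shedding lists had 3, 23, 10, 5 and 4 genes tested. In all, 24 of these pathway genes were called, where 36.9% of all genes tested were called, 18.4% in each direction. With the scaling to the NK genes, the calls on the shedding list changed from 3 higher and 1 lower to 0 higher and 1 lower. Over all genes that fit called 797 higher and 5874 lower.

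Genes that varied like each human member over the 6 NK92MI libraries were found by the same measure. For NCR1 they were ESYT1 (0.032), VAC14 (0.033) and ACAD10 (0.033), for a spread of 0.197. For NCR2 they included PJA1 (0.038) and BLOC1S3 (0.039), for a spread of 0.226. For NCR3 they were MYDGF (0.03), the AP-1 subunit gene JUND (0.038) and SYNGR2 (0.038), for a spread of 0.285. For FCGR3A they were SV2C (0.029), NDRG1 (0.073) and KRBOX4 (0.079), for a spread of 0.445. For CD160 they were CCDC120 (0.018), ERICH1 (0.031) and GALK2 (0.037), for a spread of 0.143.

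Levels of different members were compared per kilobase of exon. In WT libraries Ncr1 (216 to 352 CPM per kilobase) was above Fcgr3 (75.4 to 117) and Fcgr3 above Cd160 (23.2 to 38.4), with no overlap between neighbours. In KO libraries Ncr1 (295 to 378) was still highest, but the ranges of Cd160 (54.2 to 74.5) and Fcgr3 (48.4 to 68.1) overlapped. These mouse levels may include RNA of other cells, whose markers differed between the groups, and that part was not tested. In NK92MI, NCR3 was highest in both groups, at 247 to 283 CPM per kilobase with DMSO and 301 to 433 with BIX. With DMSO, NCR1 (13.1 to 15.9), CD160 (13.4 to 14.1) and NCR2 (12.3 to 15.3) had overlapping ranges, and FCGR3A was lowest (2.95 to 3.84). With BIX, NCR2 (16.7 to 19) was above CD160 (10.7 to 13.2) and NCR1 (11 to 12), which overlapped, and FCGR3A (5.82 to 6.81) remained lowest.

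**Figure D4:**
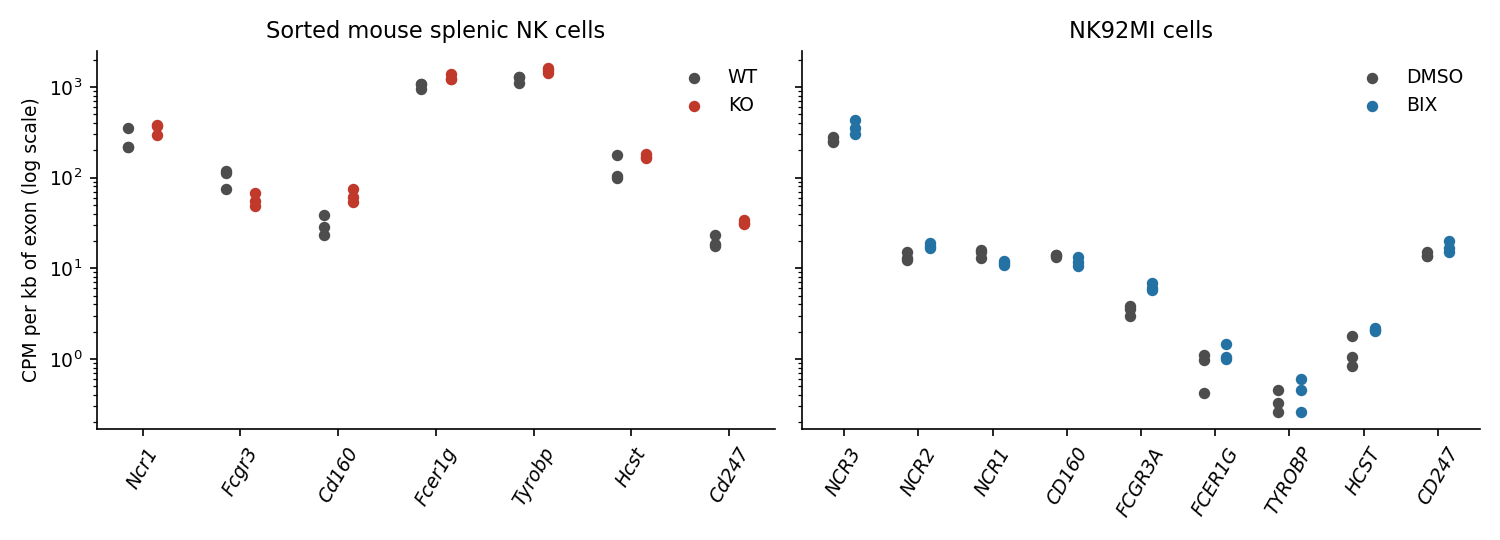
CPM per kilobase of exon, on a log axis, of the members and the 4 adaptor chains in each library of sorted mouse NK cells (left) and NK92MI (right). In the mouse the adaptors Fcer1g and Tyrobp lie above the receptors, and in NK92MI FCER1G, TYROBP and HCST lie below them, with TYROBP at 0.344 CPM per kilobase in the DMSO group.

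The values of the receptors found in both species stood as follows. NKp46 had a log2 fold change of 0.42 in KO NK cells, not called, and −0.35 in BIX-treated NK92MI. CD16 had −0.82 (Fcgr3) and 0.85 (FCGR3A). CD160 had 1.07 and −0.21, the latter not called. The comparisons share no libraries and differ in species, cell source and intervention, and their difference was not tested.

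**Figure D5:**
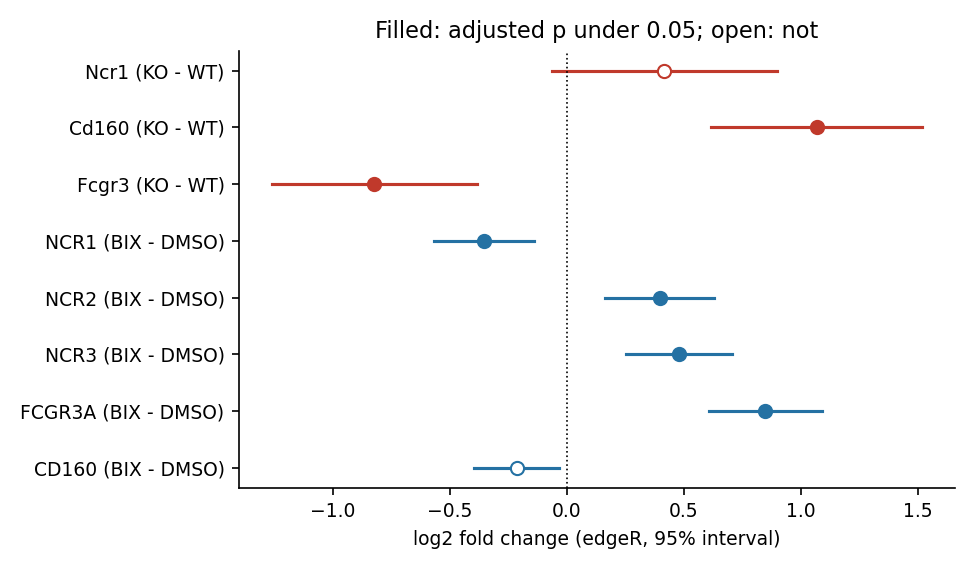
Log2 fold changes of the 8 members with 95% intervals from edgeR, KO minus WT in red and BIX minus DMSO in blue; filled points have an adjusted p under 0.05. Cd160 lies highest (1.07) and Fcgr3 lowest (−0.82) among all members.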

How the data were processed

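The authors trimmed reads with fastp 0.23.4, aligned them to GRCm38/mm10 or GRCh38/hg38 with STAR 2.7.11b, allowing 2 mismatches, and counted them per gene with HTSeq 2.0.3. The deposited values are raw counts per gene symbol. The annotation release and the strand setting are not given in the sources used here. Gene positions, exon lengths and transcripts came from the GENCODE annotation of the same builds. The human control columns were taken as the DMSO group without replicate numbers.

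Each species was fitted separately with edgeR 4.0.16 (R 4.3.3), using filterByExpr, TMM normalization and the quasi-likelihood test, two-sided, and p-values were adjusted across all tested genes by Benjamini-Hochberg with a threshold of 0.05. DESeq2 1.42.0, the study's tool, and limma-voom (limma 3.58.1) were alternatives, as were other scalings, other filters, each library left out and the study's thresholds. Intervals come from the standard error and the degrees of freedom of the fit. The members, the gene lists and the threshold were chosen with earlier results of these data known. The genes named are the members and, on each list, the called genes (the 4 of smallest adjusted p where more were called) and the 3 genes nearest in pattern to each member; others are marked, and some genes that meet this rule are not reported here. Before use, the fits were tested on simulated data. Mouse promoter sequences and the H3K9me2 data were not analysed here.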

Additional observations from a re-analysis of the deposited data

Results flagged for a closer look

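The CD16 genes moved apart between the experiments. Every KO library had less Fcgr3 than every WT library (log2 fold change −0.82), and every BIX library had more FCGR3A than every DMSO library (0.85). The CD160 genes did the reverse, with Cd160 higher in every KO library (1.07) and CD160 lower in every BIX library (−0.21, not called). Both were marked because all libraries of one experiment moved one way and all of the other the opposite way. Groups did not overlap for 38.5% of all mouse and 47.9% of all human genes tested. Of 18 macrophage and monocyte markers, 16 had negative log2 fold changes in KO against WT, and their part in Fcgr3 was not tested. Set against the NK genes, the Cd160 groups overlapped, and in the scaled fit Cd160 was not called (adjusted p = 0.278 by edgeR). The difference between the experiments was not tested, since species, cell source and intervention all differ.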

How the results depend on the processing

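All 8 members kept their direction under every alternative run, except Ncr1 with the scaling to the NK genes (−0.34). That scaling moves all genes together (median −0.81 in mouse and −0.28 in human), and relative to the median gene the members moved by little. It ended the calls of Cd160 (0.29), NCR2 (0.13) and NCR3 (0.21), brought CD160 past the threshold (−0.48), and left 1 of the 3 mouse members and 35 of the mouse pathway genes called. With edgeR the study's thresholds left 0 mouse and 1 human member and 0 mouse and 8 human pathway genes, the log2 fold changes being those of the report: Fcgr3 −0.82, Cd160 1.07, NCR1 −0.35, NCR2 0.40 and NCR3 0.48. DESeq2 called 21 mouse pathway genes. With each library left out in turn, log2 fold changes ran from 0.29 to 0.69 for Ncr1, −0.99 to −0.71 for Fcgr3, 0.91 to 1.28 for Cd160, −0.43 to −0.30 for NCR1, 0.33 to 0.49 for NCR2, 0.34 to 0.60 for NCR3, 0.75 to 0.93 for FCGR3A and −0.29 to −0.13 for CD160. Called members ran from 0 to 3 in mouse and 2 to 5 in human, and called pathway genes from 0 to 27 and 17 to 29. Calls over all genes moved as well. In human they were fewest without BIX replicate 1, 1850 higher and 1641 lower of 13084. They were most without BIX replicate 2, 2581 and 2440 of 13032, against 2348 and 2344 of 12727 with every library. Over all mouse genes, 585 were called higher and 980 lower with every library, 1433 and 2097 without WT replicate 2, 36 and 8804 with the scaling to the NK genes, 1292 and 1930 with the block, and 0 by edgeR without KO replicate 2 or KO replicate 3, where 3208 and 3287 had an unadjusted p under 0.05. Without WT replicate 1, 35 mouse genes were called higher and 64 lower, and without WT replicate 3, 6 and 8. The robust dispersion estimates, an alternative added after the data were seen, changed no call of a mouse member but left 5 of the 10 mouse pathway genes called, all of them higher. With the replicate number as a block, 2 mouse members and 23 mouse pathway genes were called, and the log2 fold changes were 0.45 (Ncr1), −0.81 (Fcgr3) and 1.08 (Cd160). Same-numbered mouse libraries share only a number: their deviations correlated at 0.281, 0.352 and −0.188, and KO replicates 1 and 3 correlated best with another number. For NK92MI no paired analysis was possible because the control columns carry no replicate number. The cause of these changes was not tested.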
